A study of Mus musculus with 6 samples.

Results

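The replication origin, polymerase and fork factors are 51 genes whose products load, start, copy and protect DNA replication forks, and 47 of them were measured here out of 16797 genes in all. The members were taken by their names from a list, compiled with earlier results of these data known, through the probe sets that the annotation pairs with exactly 1 gene. Gmnn, Fen1, Lig1 and Chaf1b had no such probe set and are not analysed here. The arrays hold total RNA of NIH3T3 cells (Normal), an immortalized line of mouse embryonic fibroblasts, so that all samples are cultures of 1 cell line. The untreated group (N, 3 arrays) and the group treated with forskolin (NF, 3 arrays) were both plated in 25 mM glucose, moved after 16 h to medium with 1 mM glucose and grown for 72 h more. Per the paper, cultures without forskolin received the vehicle DMSO, and the glucose of the medium was used up at 72 h. Forskolin (FSK) activates adenylate cyclase, which raises cAMP and so activates PKA, and it was added to the NF cultures at 10 μM, at 24 h and again at 48 h of growth in low glucose. The comparison of NF with N asks how FSK treatment altered the Normal cells at the end of growth in low glucose. The paper names Epac as another effector of cAMP, and these arrays cannot tell its effects from those of PKA. The labels call the arrays biological replicates, without saying how the cultures were separated.

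A cell copies its DNA once in each S phase. The origin recognition complex marks the origins, Cdc6 and Cdt1 load the MCM helicase there during G1, and the kinase of Cdc7 and Dbf4, together with Cdc45, the GINS complex and Topbp1, turns the loaded helicase on. Polymerase alpha with primase then lays down primers, polymerase epsilon extends the leading strand and polymerase delta the lagging strand, both held on the template by the PCNA clamp, and nucleases, a ligase and histone chaperones finish the new strands. Several of these genes are known targets of E2F transcription factors, so that their transcripts are abundant in cycling fibroblasts and scarce in resting ones.

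The values are log2 expression values made by the authors with RMA, a method that subtracts background, brings the arrays to one distribution and combines the probes of each probe set into one value. A difference of 1 on this scale is a fold change of 2. The 7 fibroblast markers measured, among them Vim and Col1a1, lay between 5.43 (Col3a1) and 12.4 (Vim), and Col3a1 was the 1 marker past the test, with a log2 change of 1.33. The 5 epithelial, 3 leukocyte and 4 endothelial markers measured lay between 2.22 (Epcam) and 4.25 (Cdh1), around or below the median log2 level of 3.70 over all probe sets tested, and 0 of them passed the test (limma, 1 epithelial marker lower at an unadjusted p under 0.05). The N replicate 1 array stood apart. Its values had an SD of 2.42 against 2.58 to 2.62 in the other arrays, and its Pearson correlations with the other N arrays, across genes, were 0.980 and 0.981 against 0.992 to 0.995 for the other pairs of one group. Of the 47 members, 35 were lower in N replicate 1 than in both other N arrays. Over all 47, the median of N replicate 1 minus the mean of the other N arrays was -0.38. The shift was not particular to them, since over 6015 probe sets of moderate level (between 5 and 8) the same median was -0.49, and the main counts are also given without this array. In such bulk RNA more cells in S phase and more of a transcript per cell cannot be told apart.

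Most genes of the replication machinery had higher values in NF. Of the 47 measured members, 13 rose, 0 fell and 34 did not pass the test (limma, adjusted p under 0.05 over all probe sets). This direction follows the deposited labels. The text of the study describes repression of cell cycle and DNA-related pathways for Normal cells, the opposite direction. It relates this to earlier work, in which the response of Normal cells to FSK involved cell cycle inhibition and arrested proliferation. The study's own list of changed genes, by contrast, runs in the direction of the labels. This conflict was not resolved here. Over all genes tested, 1.83% rose and 0.72% fell beside 27.7% of the members that rose. Before adjustment, 30 members were higher and 3 were lower with p under 0.05 (limma), beside 8.33% and 5.49% of all genes. The 3 NF values lay above all 3 N values in 31 members, where this held for 10.5% of all genes, and below them in 3 members, where it held for 9.7%. The median log2 change of the members was 0.66, from -0.69 for Pole4 to 1.40 for Chaf1a, and that of all genes was -0.03. Among the 3399 genes in the middle range of the members' levels, between 4.79 and 6.83, the median was 0.11, and after a further quantile normalization it was -0.02, with a median of 0.57 for the members.

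Leaving out N replicate 1 lowered the median change of the members and raised the number of calls, although some members, such as Cdc6 and Clspn, changed more without it. Without it 20 members rose and 0 fell, against 2.93% and 2.56% of all genes, their median change was 0.53, and that of the 3399 genes of like level turned to -0.06. All 13 members that rose with 6 arrays did so here too, and Cdt1, Gins1, Pola2, Prim2, Rfc4, Rpa1 and Clspn joined them. Leaving out any other array lowered the number of calls. Only 4 members (Topbp1, Prim1, Rnaseh2c and Chaf1a) passed without N replicate 2, beside 1.62% of all genes higher there, and 1 (Orc1) without N replicate 3, beside 0.625%. Dbf4, Rnaseh2c and Chaf1a were the 3 that passed when NF replicate 2 was left out, beside 0.899% of all genes. When NF replicate 1 was left out 0 members passed, and 0.00595% of all genes were called higher. Before adjustment (limma, p under 0.05) 25 members were higher and 3 lower, beside 5.66% and 3.22% of all genes. Without NF replicate 3 again 0 members passed, beside 0.0119% of all genes, so that hardly any gene of the whole table passed in these fits. Before adjustment 26 members were higher and 3 lower there, beside 5.6% and 3.61% of all genes. With the replicate number as a block, 0 members rose, beside 0.375% of all genes. Before adjustment (limma) 30 members were higher and 3 lower with the block, beside 8.01% and 4.88% of all genes. The median change stayed between 0.53 and 0.74 in each of these fits.

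**Figure D1:**
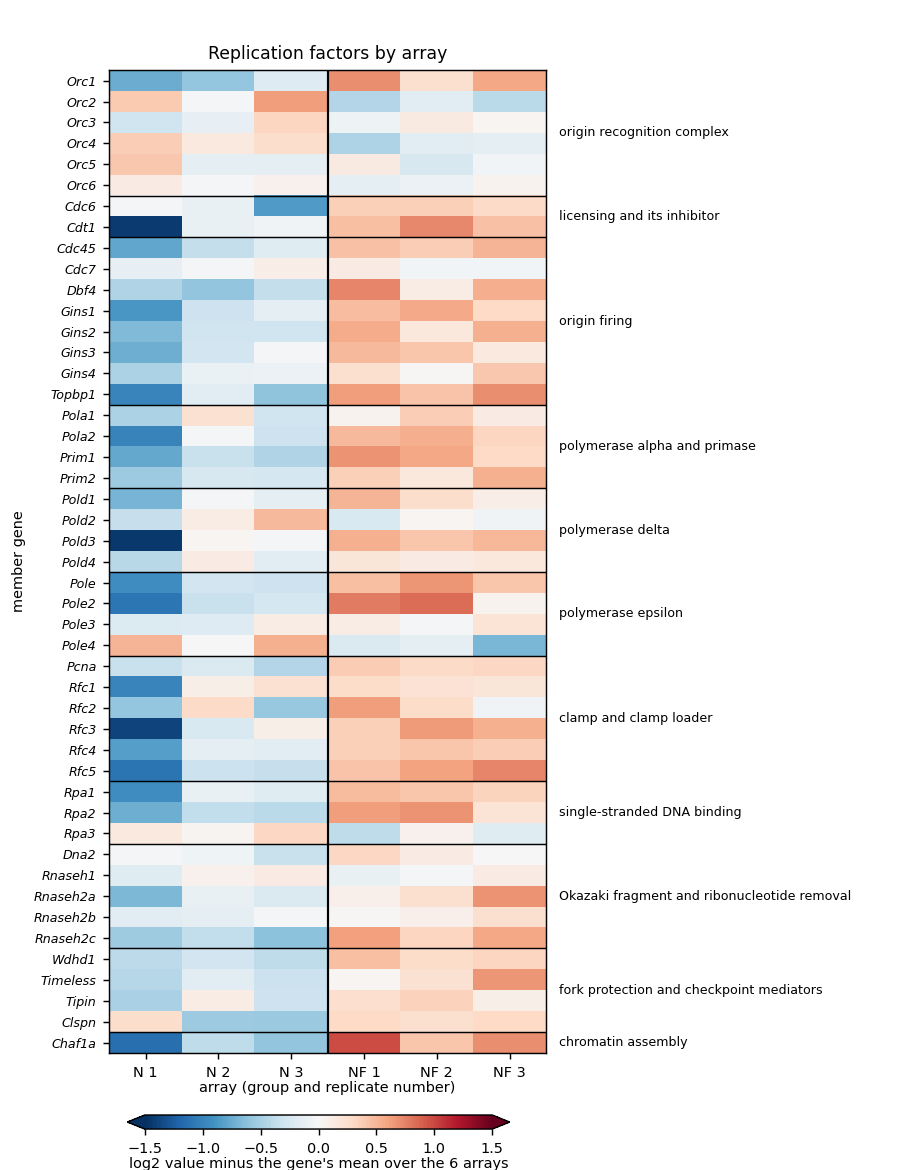
Log2 value of each of the 47 members minus the mean of that gene over the 6 arrays (colour), with arrays in columns and genes in rows by role. Most rows turn from blue in the N arrays to red in the NF arrays, N replicate 1 is the lowest array for 35 members, and Orc2, Orc4 and Pole4 run the other way.

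**Figure D2:**
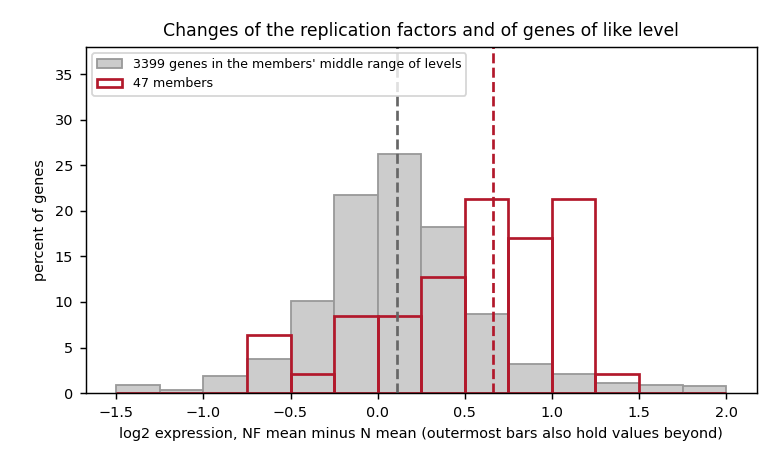
Percent of genes (vertical axis) by log2 change, NF mean minus N mean (horizontal axis), for the 47 members (red outline) and for the 3399 genes in the middle range of the members' levels (grey). The dashed lines mark the medians of 0.66 and 0.11, and the 3 bins between 0.5 and 1.25 hold 10, 8 and 10 members.

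A minority of the members' promoters held an E2F form. The choice of members did not use sequence, but several members are known E2F targets. A raised share among them is therefore not independent of the kind of genes listed. RefSeq windows from 250 bases before to 50 bases after a gene's start (build GRCm38.p6) were at hand for 41 of the 51 members, 38 of them measured. Any of the E2F forms TTTGGCGC, TTTCCCGC, TTTGCCGC and TTTCGCGC, searched on both strands, was found in 14 of the 41 members (34.1%), in 3.40% of the 13452 tested genes with a window and in 2.26% of all windows of this length. In the 250 bases before the start alone, 8 of the 41 (19.5%) held one, against 2.80% of the tested genes. The members' windows are also rich in G and C, with a median of 63.2% against 52.7% for all windows. The other motifs had shares closer to those of the 13452 tested genes, with TTTGAA, the cell cycle homology region, in 17.1% of members and 16.8% of genes, CCAAT in 46.3% and 41.4%, and TGACGTCA, the full cAMP response element, in 2.44% and 2.63%. Orc5 was the 1 member with TGACGTCA, at 69 bases before its start, and its log2 change was -0.10. A match is a description of the letters in the window and not a bound site.

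The changes of members with and without an E2F form were alike in their median. Of 13 measured members with a form 2 rose (Topbp1 and Orc1), with a median log2 change of 0.70, and of 25 without one 9 rose, with a median of 0.65. The stretches shown are those of the pair that rose, Topbp1 and Orc1, and of Orc3 and Pola1, whose changes were the closest to 0 among the members with a form that did not pass. Those of Topbp1 (chr9:103305152-103305251) and Orc1 (chr4:108579381-108579453) lie on the plus strand, and those of Orc3 (chr4:34614943-34615029) and Pola1 (chrX:93632240-93632339) on the minus strand. Capitals mark the form, with up to 46 bases on either side and no base past the start, 5′ to 3′ on the strand of the gene (RefSeq, GRCm38.p6).
Topbp1: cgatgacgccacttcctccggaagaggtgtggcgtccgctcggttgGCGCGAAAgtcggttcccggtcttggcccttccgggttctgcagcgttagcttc
Orc1: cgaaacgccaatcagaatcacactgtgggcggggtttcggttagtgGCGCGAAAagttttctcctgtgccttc
Orc3: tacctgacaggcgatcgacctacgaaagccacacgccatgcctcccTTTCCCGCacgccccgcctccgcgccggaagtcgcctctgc
Pola1: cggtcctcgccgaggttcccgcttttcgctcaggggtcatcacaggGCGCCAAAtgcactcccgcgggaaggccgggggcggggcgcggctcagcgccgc
In Topbp1 and Orc1 the form TTTCGCGC lies on the opposite strand, as does TTTGGCGC in Pola1, whereas TTTCCCGC in Orc3 lies on the strand of the gene. Clspn, the next member by this rule, holds its form after the start, and its sequence is not shown. Many members also share their start region with a neighbour. In 14 of the 41 members with a window (34.1%), and in 12.4% of the tested genes with one, the start of another gene on the opposite strand lay within 500 bases in head-to-head orientation, a feature looked at after the data were seen. Of the neighbours measured beside measured members, Rars2 beside Orc3 had the change farthest from 0, at -0.45, followed by Smyd4 beside Rpa1 at 0.19 and 4933430I17Rik beside Pole3 at -0.16. Beside members that rose, Socs4 next to Wdhd1 had a change of 0.09 and Prpf38a next to Orc1 one of -0.05. None of these neighbours passed the test.

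Within the origin recognition complex Orc1 rose, and the other subunits did not pass the test. Orc1 is the subunit whose level varies with the cell cycle in many cells. Its log2 expression was 3.50, 3.66 and 4.05 in the N arrays and 4.95, 4.49 and 4.82 in the NF arrays, higher by 1.01 ± 0.19 on the log2 scale (SE, adjusted p = 0.0378 from limma). Every NF array lay above every N array. Orc2, with which Orc3 and the other subunits form the core of the complex, went the other way, with 7.48, 7.06 and 7.71 in N and 6.65, 6.93 and 6.68 in NF (log2 change -0.67, adjusted p = 0.133). Orc4 had a log2 change of -0.52 (adjusted p = 0.130), again without overlap of the groups. Orc3, Orc5 and Orc6 had log2 changes of 0.06, -0.10 and -0.12, and their N and NF values overlapped. The complex as a whole had a median change of -0.11, the lowest of the 11 roles.

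Both measured licensing factors, which load the helicase in G1, had higher values in every NF array than in any N array without passing the test. Cdt1 was at 5.24, 6.57 and 6.63 in N and at 7.12, 7.40 and 7.12 in NF, a log2 change of 1.07 (adjusted p = 0.205). N replicate 1 was the low array, and without it Cdt1 passed at a smaller change of 0.62 (limma, adjusted p = 0.0359). Cdc6 had a log2 change of 0.66 (adjusted p = 0.213), and here N replicate 3 was the low array, at 2.99 against 3.73 and 3.81. Geminin (Gmnn), the inhibitor of Cdt1, is among the members not analysed here.

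Of the 8 factors of origin firing 4 rose, and 7 had NF values entirely above the N values. Topbp1, a scaffold that brings the helicase activators together and also activates the ATR checkpoint kinase, was at 5.85, 6.69 and 6.25 in N and at 7.48, 7.27 and 7.54 in NF, 2.24-fold higher (adjusted p = 0.0360 from limma). Its promoter stretch is the first one given above. Cdc45, a component of the active helicase, was at 4.21, 4.63 and 4.80 in N and at 5.42, 5.36 and 5.49 in NF, 1.84-fold higher (adjusted p = 0.0432). The NF arrays differed little among themselves for both genes, with SDs of 0.14 and 0.065 against 0.42 and 0.30 in N. Dbf4, the regulatory subunit that activates the kinase Cdc7, was at 6.85, 6.70 and 6.94 in N and at 8.03, 7.40 and 7.84 in NF, 1.90-fold higher (adjusted p = 0.0432). Its catalytic partner Cdc7 had a log2 change of 0.03, but its probe set was at a mean of 2.69, the lowest of all members and below the median level of 3.70.

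The GINS complex, which has 4 subunits, travels with the active helicase. Gins2 was at 5.33, 5.70 and 5.70 in N and at 6.56, 6.16 and 6.54 in NF, 1.79-fold higher (adjusted p = 0.0463 from limma). Gins1 differed by 0.89 (log2, adjusted p = 0.0686) at a mean level of 3.45, below the median, Gins3 by 0.70 (adjusted p = 0.140) and Gins4 by 0.44 (adjusted p = 0.274). In each of these subunits all NF values exceeded all N values.

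Polymerase alpha and primase have 4 subunits, of which 1 rose. Prim1, the catalytic subunit of primase, was at 3.49, 3.91 and 3.80 in N and at 4.92, 4.83 and 4.55 in NF, 2.04-fold higher (adjusted p = 0.0242 from limma). Its partner Prim2 had a log2 change of 0.70 (adjusted p = 0.0615) and Pola2, the accessory subunit of polymerase alpha, one of 0.90 (adjusted p = 0.114), both without overlap of the groups. Pola1, the catalytic subunit of polymerase alpha, had one of 0.36 (adjusted p = 0.505) with overlapping groups, at a mean level of 3.69, just below the median of all probe sets. Without N replicate 1, Prim1, Prim2 and Pola2 all passed.

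Polymerase delta had no member past the test, and 3 of its 4 subunits lay higher in every NF array. Pold1, its catalytic subunit, was at 4.18, 4.85 and 4.74 in N and at 5.39, 5.14 and 4.97 in NF, a log2 change of 0.58 (adjusted p = 0.252 from limma), which was 0.37 without N replicate 1. Pold3 had a log2 change of 0.96 (adjusted p = 0.282). N replicate 1 was at 4.19 for this gene, against 5.67 and 5.60 in the other N arrays, and without it the change was 0.48. Pold2 and Pold4, the other accessory subunits, had changes of -0.17 and 0.31 with adjusted p = 0.804 and 0.468. The separation of Pold4 was marginal, with N replicate 2 and NF replicate 2 both at 8.32.

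In polymerase epsilon 1 of 4 subunits rose. Pole, the catalytic subunit, was at 4.15, 4.78 and 4.77 in N and at 5.53, 5.73 and 5.50 in NF, 2.03-fold higher (adjusted p = 0.0397 from limma). Pole2, the second subunit, had a larger log2 change of 1.12 but did not pass (adjusted p = 0.0969), and its NF values spread from 5.49 to 6.28. Pole3, a histone-fold subunit that is also found in a chromatin remodelling complex, had one of 0.19 with overlapping groups. Pole4, its histone-fold partner, was at 8.39, 7.88 and 8.41 in N and at 7.66, 7.75 and 7.20 in NF, a log2 change of -0.69 (adjusted p = 0.166), the lowest of all members.

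**Figure D3:**
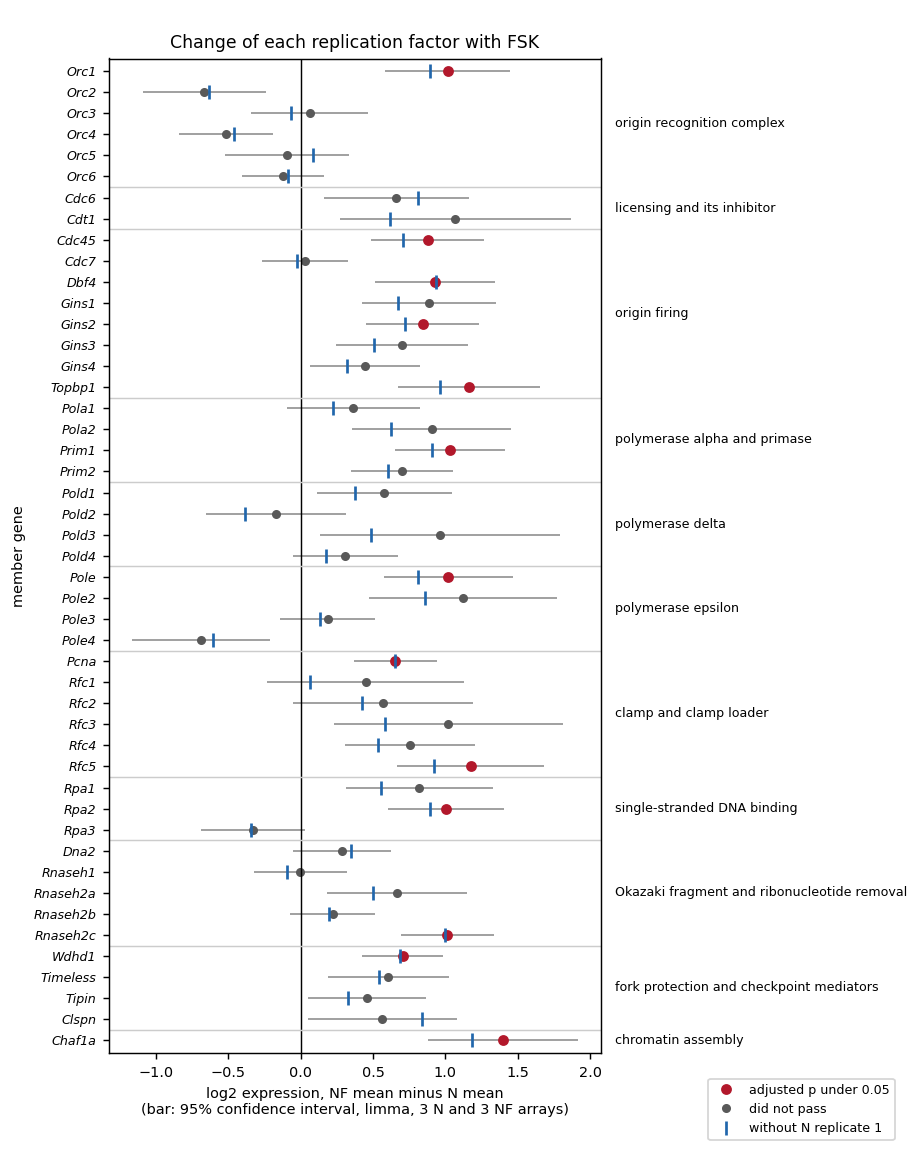
Log2 change of each member, NF mean minus N mean (horizontal axis), with the 95% confidence interval from limma (bars, 3 N and 3 NF arrays), red where the adjusted p was under 0.05, and blue ticks for the change without N replicate 1. The 13 members that rose lie between 0.65 and 1.40, and the blue ticks are mostly closer to 0.

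PCNA is the ring that holds polymerases on DNA, and the replication factor C complex (Rfc1 to Rfc5) opens and loads it. Pcna was at 9.53, 9.64 and 9.42 in N and at 10.24, 10.14 and 10.17 in NF, 1.57-fold higher (adjusted p = 0.0395 from limma). This is the smallest change among the members that rose, with SDs of 0.11 in N and 0.05 in NF. A second probe set of Pcna differed mainly in N replicate 1, at 9.71, and gave a log2 change of 0.59 (adjusted p = 0.0615), so that the call of this gene rests on which of the 2 is read. Rfc5 was at 6.50, 7.27 and 7.24 in N and at 8.02, 8.20 and 8.32 in NF, 2.26-fold higher (adjusted p = 0.0387). Rfc3 differed by 1.02 (log2, adjusted p = 0.226) and Rfc4 by 0.76 (adjusted p = 0.104), both without overlap of the groups. N replicate 1 was the low array of Rfc3, at 3.74 against 4.90 and 5.21, and without it the change was 0.58. Rfc1, the large subunit, had one of 0.45 with overlapping groups, and without N replicate 1 it was 0.07. Rfc2 had one of 0.57 with overlapping groups.

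The RPA trimer coats single-stranded DNA at the fork. Rpa2, the subunit that checkpoint kinases phosphorylate, was at 4.77, 5.13 and 5.09 in N and at 6.12, 6.17 and 5.71 in NF, 2.01-fold higher (adjusted p = 0.0298 from limma). Rpa1, the large subunit that makes most of the contacts with DNA, had a log2 change of 0.82 (adjusted p = 0.121) without overlap of the groups, and it passed without N replicate 1 at a change of 0.55 (limma, adjusted p = 0.0341). Rpa3, the smallest subunit, had a log2 change of -0.33 (adjusted p = 0.416) with overlapping groups.

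Of the enzymes that remove primers and stray ribonucleotides, Rnaseh2c had the lowest p of all members. This accessory subunit of ribonuclease H2 was at 4.67, 4.84 and 4.59 in N and at 5.82, 5.53 and 5.79 in NF, 2.02-fold higher (adjusted p = 0.0152 from limma), and the change without N replicate 1 was nearly the same, 1.00. Rnaseh2a, the catalytic subunit, had a log2 change of 0.67 (adjusted p = 0.188) and Rnaseh2b one of 0.22 (adjusted p = 0.529), both with NF values above all N values. Rnaseh1, a separate enzyme that acts on RNA in longer hybrids, had a log2 change of -0.0014. The nuclease and helicase Dna2 had one of 0.29 at a mean level of 3.35, below the median of all probe sets.

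Among the proteins that travel with the fork, Wdhd1, which links the helicase to polymerase alpha, rose. It was at 4.31, 4.42 and 4.33 in N and at 5.15, 4.98 and 5.03 in NF, 1.63-fold higher (adjusted p = 0.0297 from limma), with SDs of 0.06 in N and 0.09 in NF. Timeless and Tipin, which form the fork protection complex, differed by 0.61 (log2, adjusted p = 0.167, at a mean level of 3.57, below the median) and by 0.46 (adjusted p = 0.308). Claspin (Clspn), which passes the signal from ATR to the checkpoint kinase Chk1, was at 4.57, 3.76 and 3.74 in N and at 4.60, 4.55 and 4.61 in NF. Its N replicate 1 was the high array, close to the NF values, and without it the change went from 0.56 to 0.84 and passed the test (limma, adjusted p = 0.00577).

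Chaf1a, the large subunit of the chromatin assembly factor CAF-1, which places histones on new DNA through PCNA, rose most of all members. It was at 4.33, 5.09 and 4.87 in N and at 6.44, 5.88 and 6.16 in NF, higher by 1.40 ± 0.23 on the log2 scale (SE, adjusted p = 0.0243 from limma), or 2.63-fold. Without N replicate 1 the log2 change was 1.18 (limma, adjusted p = 0.00761). Its partner Chaf1b is not analysed here.

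Partners within a complex were compared directly by the difference of their log2 values in each array. The 11 pairs were set by role, with earlier results of these data known. The level of one probe set cannot be set against that of another, so each pair is given relative to its N mean, and 3 arrays against 3 cannot give an exact permutation p under 0.1. In 6 of the 11 pairs the NF arrays did not overlap the N arrays. Each of these had a two-sided exact permutation p = 0.1, the smallest possible, and adjusted p = 0.183 over the 11 pairs. How often the groups separate for other pairs of genes was not determined, so this count has no share to be set beside. The widest gaps were those of polymerase epsilon and the origin recognition complex. Pole minus Pole4 was -0.58, 0.57 and 0.02 in N and 1.53, 1.64 and 1.96 in NF. Orc1 minus Orc2 was -0.30, 0.28 and 0.03 in N and 1.98, 1.24 and 1.82 in NF. Both differences were larger than the spread between arrays, with NF means of 1.71 and 1.68 relative to N. They combine changes of single members already given above and are not separate support for them. Rpa1 minus Rpa3 differed by 1.15 between the groups, and Pola1 minus Prim1 by -0.67. Cdc7 minus Dbf4 differed by -0.90, a value that rests on the dim probe set of Cdc7. Pole2 minus Pole3 differed by 0.93, although 1 NF array lay at the edge of the N values, both at 0.32. The groups overlapped for Gins1 minus Gins4, Pold1 minus Pold4, Pcna minus Rfc1, Rnaseh2a minus Rnaseh2c and Timeless minus Tipin, with differences between -0.35 and 0.44. The pairs of Cdt1 with Gmnn, Fen1 with Lig1 and Chaf1a with Chaf1b could not be formed.

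**Figure D4:**
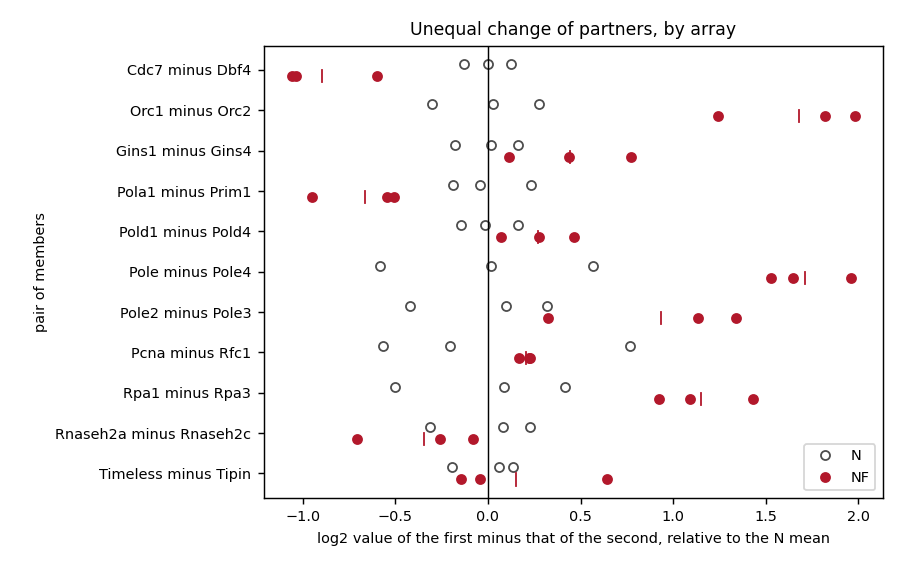
Log2 value of the first gene minus that of the second in each array, relative to the N mean of the pair (horizontal axis), for 11 pairs of members, with open points for N, filled points for NF and a short line at the NF mean. Pole minus Pole4 and Orc1 minus Orc2 lie beyond 1.2 in every NF array, and Timeless minus Tipin overlaps between the groups.

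Other genes of the replication machinery were taken from lists set by role. Of 38 measured genes 11 rose, 0 fell and 27 did not pass, against the 1.83% and 0.72% of all genes. The median log2 change of the 38 was 0.57. Before adjustment 22 were higher and 1 (Polk) was lower with p under 0.05 (limma), beside 8.33% and 5.49% of all genes. The means of 4 genes were lower in NF, from -0.04 for Primpol to -0.67 for Mtbp on the log2 scale, a pair of genes chosen after their values were seen. All 6 subunits of the replicative helicase, Mcm2 to Mcm7, had NF values above all N values, and 4 of them rose, among them Mcm6 (log2 change 1.71, adjusted p = 0.0132 from limma) and Mcm4 (1.88, adjusted p = 0.0446). Mcm3 and Mcm5 rose by 1.47 and 1.37 (adjusted p = 0.0166 and 0.0185). Ticrr, which helps Topbp1 to start the helicase, rose by 1.28 on the log2 scale (adjusted p = 0.0143). Chtf18, of an alternative clamp loader, rose by 0.91 (adjusted p = 0.0242). Pclaf, a PCNA-binding protein, and Dnmt1, which copies DNA methylation onto new strands, rose by 1.24 and 1.69 (adjusted p = 0.00947 and 0.0276). Without N replicate 1 the lowest p of Pclaf fell on another of its probe sets, at a log2 change of 1.60. Among histone chaperones and their partners, Asf1b and the histone acetyltransferase Hat1 rose by 1.87 and 1.09 (adjusted p = 0.0320 and 0.0242). Of the 5 translesion genes measured, Rad18, the ligase that marks PCNA at damaged forks, rose by 1.11 (adjusted p = 0.0498). Without N replicate 1, 15 of the 38 genes rose and Polk, a translesion polymerase, fell.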

How the data were processed

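Total RNA of NIH3T3 cells was measured on 6 Affymetrix gene arrays, 3 N and 3 NF. The deposited log2 values were made by the authors with RMA in the R/Bioconductor package oligo, per the paper's methods; versions, genome build and the arrays normalized together are not given in the sources used here. Of 22035 probe sets, 18197 with 1 gene symbol were tested, 1260 with several symbols and 2578 not listed were left out. The 2 groups were fitted without covariates by limma 3.58.1 (lmFit and eBayes, under R 4.3.3), with Benjamini-Hochberg adjustment over all 18197 and a threshold of 0.05. For genes with several probe sets, that of lowest p was kept, a rule of the study's methods. The fit was tested on simulated data. The number of arrays limits the precision. All members are accounted for by role, with array values for those past the test and, per role without one, for the lowest p, and up to 4 genes with the lowest p per other list were eligible to be named. Members, lists and pairs were chosen with earlier results of these data known.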

Additional observations from a re-analysis of the deposited data

How the results depend on the processing

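With other settings the number of members that rose, beside the share of all genes called higher in the same fit, was 16 (2.96%) after a further quantile normalization, 13 (2.01%) with each array centred on its median, 13 (1.70%) with limma's robust option, 13 of 42 (4.32%) without dim probe sets, 12 (1.79%) with the probe set of highest mean, 10 (1.89%) with limma's trend and 23 (4.02%) with array weights. The study's methods name limma for the arrays and Student's t-test for differences between data sets in general, and that t-test gave 21 higher and 3 lower members without adjustment (5.95% and 5.13% of all genes) and 0 and 0 after Benjamini-Hochberg adjustment (0.00595% and 0%), and 20 and 0 of the other replication genes higher. With the replicate block 0 members (0.375% of all genes) and 1 of the other replication genes rose. Before adjustment 30 members were higher and 3 lower in that fit (limma), beside 8.01% and 4.88% of all genes. Between arrays of the same number, the correlations of the deviations from the group means were between -0.0780 and -0.0736. In this check 0 arrays correlated best with their own number. With 3 arrays per group it cannot decide whether the numbers pair the arrays. Leaving out 1 array at a time gave between 0 and 20 members that rose, 0 that fell, between 0 and 15 of the other replication genes that rose, and medians of the members between 0.53 and 0.74. The pairs without overlap numbered between 5 and 8 in the settings run for them. Some of these settings leave out 1 array, and with fewer arrays groups separate more easily, so the counts cannot be compared directly. Members with an E2F form numbered 8 with only the 250 bases before the start. No member past the test under any of these settings changed direction. The cause of these differences was not tested.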
